A study of Saccharomyces cerevisiae with 17 samples.

Results

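The genes encoding the proteins of the cytosolic ribosome of budding yeast were taken by name: every row whose symbol was RPL or RPS followed by a number and an optional A or B, and the stalk genes RPP0, RPP1A, RPP1B, RPP2A and RPP2B. The rule used no measured value. It found 137 genes of 6644 with rows in both deposited tables: 76 large subunit (RPL), 56 small subunit (RPS) and 5 stalk genes. Of these, 118 formed 59 paralog pairs (A and B copies, left by an ancient genome duplication) and 19 were single copy. RNA was measured as FPKM (fragments per kilobase of transcript, scaled to the mapped fragments), a level per length within each library, and 136 members had a value in all 15 deposited columns.

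A yeast ribosome holds a large subunit, which joins amino acids and opens the exit tunnel, and a small subunit, which reads the message. Ribosomal protein genes are among the most strongly transcribed genes of a growing yeast cell and are controlled as one set: Rap1 binds their promoters, Fhl1 and Ifh1 follow it there, and the TOR and protein kinase A pathways act on them through factors such as Sfp1 and Crf1. Most of the introns of yeast lie in few genes, and ribosomal protein genes are the best known group among them. Several of the proteins bind their own RNA and limit their own synthesis.

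All strains were of the W303 background and were grown to an OD600 of 0.4 to 0.6; total RNA was depleted of ribosomal RNA and made into strand-specific libraries. Ume6 is a DNA-binding repressor of early meiotic genes that recruits the histone deacetylase Rpd3 and the nucleosome remodeler Isw2 to a GC-rich word called URS1. Chd1-Ume6 joins the Chd1 nucleosome remodeler to Ume6, and its dead form carries the change D513N in Chd1. The groups with a ume6 deletion were Chd1-Ume6 in ume6 (2 columns), dead Chd1-Ume6 in ume6 (1 column) and ume6 alone (2 columns). Those with a deletion of rrp6, which encodes a nuclear exosome nuclease, were Chd1-Ume6 in rrp6 and rrp6 alone (2 libraries each). The others were Chd1-Ume6 in wild type (2 columns), the isw2 rpd3 double deletion (1 column, in a prototrophic W303 strain, unlike the others), the isw2 deletion, the rpd3 deletion and wild type (1 column each).

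The labels list 17 libraries for these 15 columns. Wild type and isw2 have 2 labelled isolates each but 1 column, and the digits of the wild-type values fitted a mean of several libraries, so each comparison with wild type shares that 1 column. The deleted genes were at or near 0 FPKM where they should be (UME6 at 0.0536 FPKM in the first ume6 column and not listed in the other, ISW2 and RPD3 at 0.110 FPKM or less, RRP6 at 1.68 FPKM or less). Read depth is unknown, since the files hold FPKM alone. A smaller share of a library cannot be told apart from less RNA per cell or from fewer expressing cells.

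Whole chromosomes stood apart in some columns, which bears on every member located there. For each gene the log2 level was set against its own median over the 15 columns and then against the median of its column. On that scale the 479 other genes on chromosome XVI had a median of 0.64 and 0.56 with Chd1-Ume6 in ume6, 0.30 with the dead fusion in ume6, 0.60 and 0.54 in ume6 alone, and 0.68 in rrp6 library 2. In the 9 columns left they lay between -0.29 and -0.14. The 226 other genes on chromosome IX had 0.90 and 0.88 in both columns of Chd1-Ume6 in ume6, and the 168 on chromosome III had 0.90 in the workbook column of ume6. All 222 other combinations of chromosome and column lay between -0.17 and 0.12. DNA copy number was not measured in these files and its part was not tested. The set has 1, 5 and 11 members on III, IX and XVI, and its median changes are given below also without them.

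Levels differed widely within the set. Of the 136 members with full values, 101 had a median of at least 1000 FPKM over the columns. RPL41B, one of 2 genes for the smallest protein of the ribosome, led with a median of 7714 FPKM (3649 to 12568), followed by RPL29 at 7615 FPKM (5223 to 9402). RPS31, which encodes ubiquitin fused to a small subunit protein, had 5880 FPKM (3321 to 8100), RPL41A 5880 FPKM (1682 to 8444) and the stalk gene RPP2B 4730 FPKM (3129 to 7886). RPL41A and RPL41B have coding sequences of 78 bases that differ at 1 base, so reads inside them can be assigned to one copy only through that base or the flanks, and their FPKM are uncertain. Both are shown here from the R64 reference of strain S288C (RefSeq), 5′ to 3′ on the coding strand, with the base that differs in capitals; RPL41A is on chrIV:130407-130484 and RPL41B on chrIV:221724-221801, both on the minus strand.

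RPL41A: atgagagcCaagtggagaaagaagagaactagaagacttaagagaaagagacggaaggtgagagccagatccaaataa

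RPL41B: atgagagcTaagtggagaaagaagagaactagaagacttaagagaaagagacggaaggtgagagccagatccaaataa

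At the low end, 8 members had a median under 300 FPKM. They were RPL33A (260 FPKM), RPL22B (131), RPL7B (128), RPL22A (60.8), RPL39 (37.9), RPL15B (37.3), RPL36B (26.3) and RPL43A (0.877 FPKM). RPL39 is a single-copy gene for a protein of the exit tunnel, with a coding length of 156 bases, and its values spread from 9.02 to 83.2 FPKM. RPL43A lay between 0.296 and 2.73 FPKM and had no value in 1 column, while its partner RPL43B had a median of 1820 FPKM; it was left out of the tests.

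**Figure D1:**
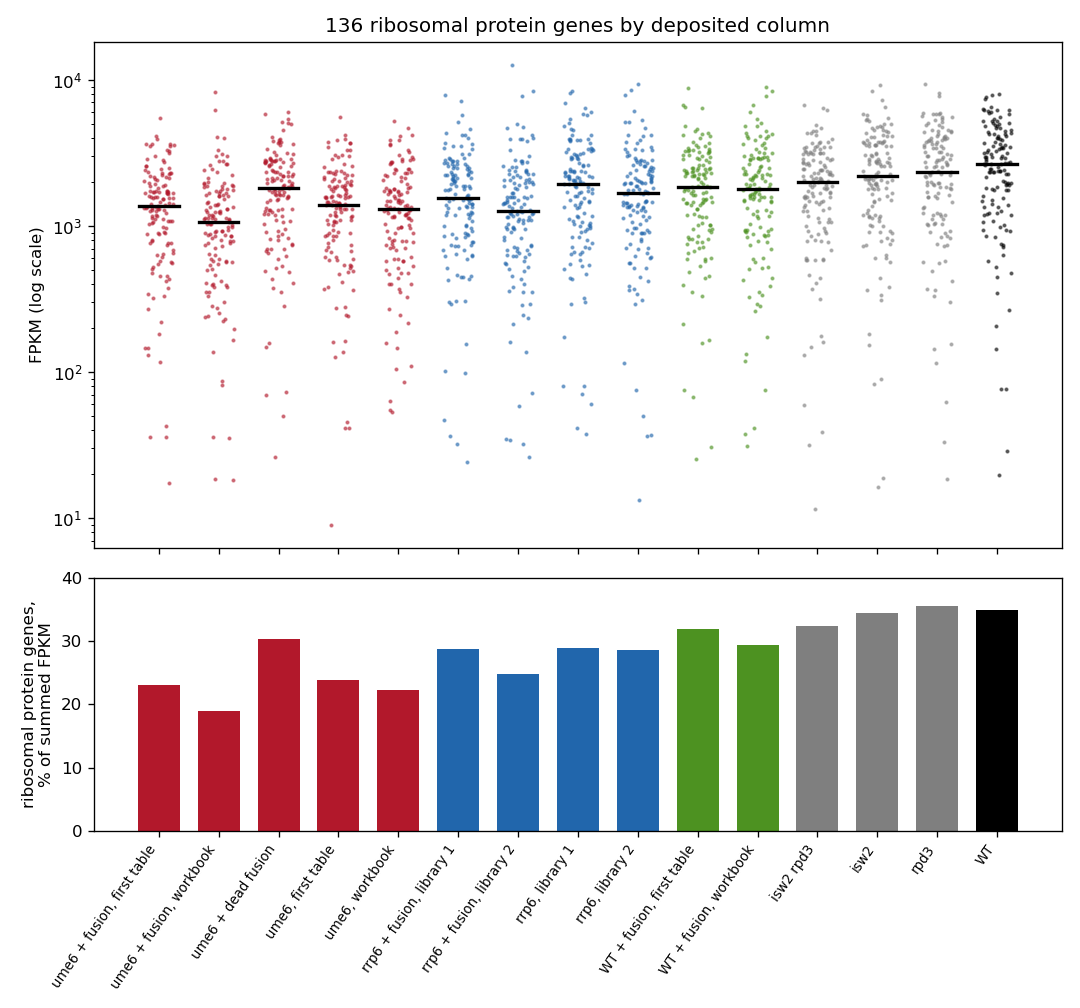
Level of each of the 136 ribosomal protein genes (points, FPKM on a log scale, black bar at the median) and their share of summed FPKM (bars, percent) in each of 15 deposited columns; colours mark the ume6 deletion (red), the rrp6 deletion (blue), Chd1-Ume6 in wild type (green), isw2 and rpd3 deletions (grey) and wild type (black). The share was 19.0% to 30.3% in the 5 ume6-deletion columns, 34.9% in wild type and 24.8% to 35.5% in the other columns, so the ranges overlapped.

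The set took less of the library in ume6 alone than in wild type. Ribosomal protein genes held 23.8% and 22.3% of summed FPKM in ume6, against 34.9% in wild type. Their median level was 1400 and 1299 FPKM in ume6, against 2655 FPKM in wild type. In the fit across all genes, 132 of 136 members were lower in ume6, with a median change of -0.91 on the log2(FPKM + 1) scale beside 0.04 for all 6241 genes tested. At least a 2-fold decrease was fitted for 47 members, beside 3.81% of all genes. Genes that are abundant but not ribosomal (181 genes of at least 500 FPKM on average) had a median of -0.44. Centring the columns on those genes moved the median of all genes by 0.29 and left the members at -0.62, and quantile normalization left them at -0.27. Without the members on III, IX and XVI the median was -0.93 (119 of 120 lower).

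With 1 wild-type column, 7 members passed (limma, adjusted p under 0.05), all lower; 0.545% of all genes passed in that direction and 2.13% in either. At an unadjusted p under 0.05 there were 107 members, beside 19.3% of all genes. RPL1B, which encodes the mobile stalk protein at the tRNA exit side of the large subunit, had 469 and 369 FPKM in ume6, against 1404 FPKM in wild type. Its change was -1.68 ± 0.26 SE (log2 scale), with an adjusted p = 0.0159. RPS0B, for a small subunit protein, had 1445 and 1658 FPKM in ume6, against 4265 FPKM in wild type (-1.43 ± 0.25 SE, adjusted p = 0.0240). In both genes the ume6 columns lay far below the wild-type value.

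Other called members included large subunit genes. RPL42B had 1587 and 1597 FPKM in ume6, against 3589 FPKM in wild type (adjusted p = 0.0360). RPL27B had 866 and 801 FPKM in ume6, against 2044 FPKM in wild type (adjusted p = 0.0451). RPL33B had 848 and 890 FPKM in ume6, against 1951 FPKM in wild type (adjusted p = 0.0479). These decreases were 2.29-fold to 2.40-fold. None of the 5 named lies on III, IX or XVI, but RPL1B and RPL33B are partners of copies on XVI, and the coding sequences of RPL1A and RPL1B are 99.4% identical, so the split of reads between them is uncertain.

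The calls depended on single columns. The share of all genes that passed in each of the fits below is not given, so these counts are not results about the members alone. No member passed when either ume6 column was left out, 2 passed without any 1 column of Chd1-Ume6 in ume6 or in wild type, and 21 and 19 passed without rrp6 library 1 and 2. The median of the set stayed between -0.94 and -0.84 in all 10 of these fits.

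Outside the 7, the extremes of the comparison were RPL39 (-2.002 ± 1.13 SE, adjusted p = 0.381) and RPL41A (-1.78 ± 0.40 SE, adjusted p = 0.0613) at the low end. RPL36B (1.35 ± 0.34 SE, adjusted p = 0.0854), RPL15B (0.60 ± 0.28 SE, adjusted p = 0.298) and RPS23B (0.22 ± 0.37 SE, adjusted p = 0.803) stood at the high end. RPL36B and RPS23B are on XVI.

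The promoters of the called members show the word that Rap1 is known to bind in this gene class. Within 500 bases before the start codon, a Rap1-like word (ANCCNTACA, either strand) was present in 68 of 137 members (49.6%), beside 6.13% of 6000 protein-coding genes with a window of that length. Of the 7 called genes 6 held it, and RPL27B did not within this window. The word nearest the start codon is shown for 4 of them in capitals, with 30 bases on each side, as the gene's own strand reads in R64; the strains were W303, and its sequence was not used. These are a description of letters and not of binding.

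RPL1B: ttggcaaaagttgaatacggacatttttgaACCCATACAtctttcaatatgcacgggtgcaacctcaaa

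RPS0B: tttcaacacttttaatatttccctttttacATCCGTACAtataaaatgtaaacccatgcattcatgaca

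RPL42B: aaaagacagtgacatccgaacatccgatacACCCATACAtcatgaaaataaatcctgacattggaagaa

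RPL33B: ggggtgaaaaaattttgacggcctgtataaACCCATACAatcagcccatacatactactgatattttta

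The windows lie at chrVII:254300-254368 for RPL1B (plus strand), chrXII:241779-241847 for RPS0B (plus), chrVIII:383073-383141 for RPL42B (minus) and chrXV:779837-779905 for RPL33B (minus). In ume6 against wild type the 67 tested members with it had a median of -0.96, and the 69 without it -0.86. The Fhl1-like GACGCA was in 15.3% of member promoters, beside 10.9% of all. The 88 tested members with an intron in the coding sequence had a median of -0.93, and the 48 without -0.88.

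The next comparison asks what the active fusion did in a strain without Ume6, and members were not higher with it. They held 23.1% and 19.0% of summed FPKM with the fusion, against 23.8% and 22.3% in ume6 alone. The fitted median was -0.18 (all genes 0.06), 117 of 136 members were lower, and no member passed by limma, with 8 at an unadjusted p under 0.05, beside 9.36% of all genes; 0.224% of all genes passed. The median was -0.02 without the workbook column of the fusion. Without the members on III, IX and XVI it was -0.19. The first-table columns of the 2 groups were close to each other: across the 136 members they had r = 0.989 and a median absolute difference of 0.07 on the log2 scale, while the 2 ume6 columns had r = 0.955 and 0.18. Genes are not independent replicates, and these r are descriptions. The members farthest up were RPL34B (0.87 ± 0.22 SE, adjusted p = 0.150), RPL40A (0.85 ± 0.20 SE, adjusted p = 0.127) and RPL16A (0.74 ± 0.21 SE, adjusted p = 0.196), all on IX. Farthest down were RPL22A (-1.05), RPL36B (-0.74) and RPS14A (-0.72), the last on III.

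With the dead fusion, members were higher than in ume6 alone. Their share was 30.3% with the dead fusion, against 23.8% and 22.3% in ume6. The median change was 0.37 (all genes -0.03, abundant other genes 0.01), and 128 of 136 members were higher. No member passed by limma with 1 dead-fusion column, 23 were at an unadjusted p under 0.05, beside 7.35% of all genes, and 0.0481% of all genes passed. RPL3, a single-copy gene for a protein close to the peptidyl transferase centre, had 5141 FPKM with the dead fusion, against 3006 and 2776 FPKM in ume6. The 1 dead-fusion value lay above both ume6 values. The largest fitted increases belonged to RPL39 (1.87 ± 1.13 SE, adjusted p = 0.761), RPL28 (1.15 ± 0.53 SE, adjusted p = 0.689) and RPL41A (1.07 ± 0.40 SE, adjusted p = 0.620). RPL36B (-0.94), RPS28B (-0.71) and RPS14A (-0.30) were at the low end. The median without the members on III, IX and XVI was 0.40.

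Set directly against the dead fusion, the active fusion had lower members. The median was -0.56 (all genes 0.09, abundant other genes -0.02) and 125 of 136 were lower. None passed by limma, 51 were at an unadjusted p under 0.05, beside 14.2% of all genes, and 0.353% of all genes passed. RPL27B had 767 and 635 FPKM with the active fusion, against 1500 FPKM with the dead one, and shared the lowest adjusted p of the set with RPS26B (0.120). The lowest changes were in RPL39 (-2.21), RPL28 (-1.55) and RPL22A (-1.39), the highest in RPL34B (0.59), RPS28B (0.59) and RPL40A (0.52). The median ran from -0.73 to -0.47 when single columns were left out, and was -0.60 without the members on III, IX and XVI.

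**Figure D2:**
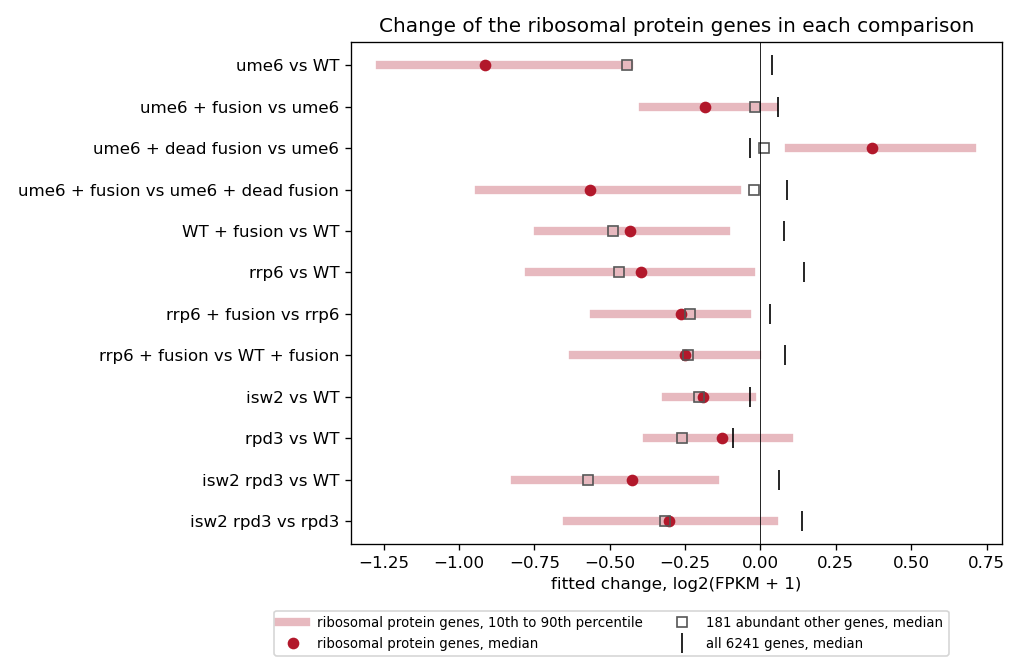
Fitted change of ribosomal protein genes in each of 12 comparisons on the log2(FPKM + 1) scale: red points are the median over 136 members, pink bars their 10th to 90th percentile, open squares the median of 181 abundant other genes, black ticks the median of 6241 genes. The member median was -0.91 for ume6 against wild type beside -0.44 for the abundant other genes, and 0.37 beside 0.01 for the dead fusion against ume6.

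In the 5 comparisons with wild type of strains with an intact UME6 gene, members had a lower median than in wild type, and so did the other abundant genes; scaled on those genes, or by quantiles, the 5 member medians lay above 0. Chd1-Ume6 in wild type gave shares of 32.0% and 29.4%, against 34.9% in wild type; the median was -0.43 for members and -0.49 for abundant other genes. The rrp6 deletion gave 29.0% and 28.6% against the same 34.9%, with -0.40 for members and -0.47 for abundant other genes. The rrp6 libraries are only in the workbook and wild type only in the first table. Their shares were not adjusted for that, and the fitted changes rest on the groups that both hold. The isw2 rpd3 deletion gave 32.5%, with -0.43 and -0.57 against wild type. The isw2 deletion gave 34.6%, with -0.19 and -0.20, and the rpd3 deletion 35.5%, with -0.13 and -0.26. Centring on the abundant other genes brought these 5 member medians to values between 0.02 and 0.17. No member passed by limma in any of these 5 comparisons, where the share of all genes that passed was 0.016% for Chd1-Ume6 in wild type, 0.433% for rrp6, 3.8% for isw2 rpd3, 0.016% for isw2 and 0.881% for rpd3. At an unadjusted p under 0.05 there were 20 members for Chd1-Ume6 in wild type (8.6% of all genes), 13 for rrp6 (11.7%), 14 for isw2 rpd3 (19.6%), 0 for isw2 (1.31%) and 0 for rpd3 (11.6%). Without the members on III, IX and XVI the medians were -0.42 for Chd1-Ume6 in wild type, -0.41 for rrp6, -0.42 for isw2 rpd3, -0.19 for isw2 and -0.13 for rpd3.

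Other comparisons leave wild type out. Chd1-Ume6 in rrp6 gave shares of 28.8% and 24.8%, against 29.0% and 28.6% in rrp6 and 32.0% and 29.4% with Chd1-Ume6 in wild type, so a share near that of ume6 (23.8% and 22.3%) was also seen in 1 column with UME6 intact. The median of members was -0.26 for Chd1-Ume6 in rrp6 against rrp6 alone and -0.23 for abundant other genes. Against Chd1-Ume6 in wild type, the rrp6 strain with the fusion had -0.25 and -0.24. For isw2 rpd3 against rpd3 the values were -0.30 and -0.32, and quantile scaling gave members 0.0433. Without the members on III, IX and XVI the medians were -0.25, -0.24 and -0.29. No member passed by limma in these 3, where 0.705%, 5.75% and 0.417% of all genes passed. At an unadjusted p under 0.05 there were 13 members (14.6% of all genes) for Chd1-Ume6 in rrp6 against rrp6, 15 (19.7%) against Chd1-Ume6 in wild type and 7 (6.83%) for isw2 rpd3 against rpd3. Tests of whether the effect of Chd1-Ume6 differed between wild type, ume6 and rrp6 called no member by limma in any of the 3 pairings of backgrounds, and few or no genes of all 6241. For rrp6 against wild type 0.032% of all genes passed, with 2 members (9.95% of all genes) at an unadjusted p under 0.05. For ume6 against wild type 0% passed, with 8 members (6.33%), and for ume6 against rrp6 0.208% passed, with 6 members (11.8%).

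Single members stood at the ends of these comparisons without passing. For Chd1-Ume6 in wild type the lowest were RPS28B (-1.30), RPL14B (-1.13) and RPP1B (-1.08), and the highest RPL36B (0.29), RPS9A (0.27) and RPL15B (0.21). For rrp6 they were RPL39 (-1.78), RPL22B (-1.12) and RPS13 (-1.03), and RPL18B (1.00), RPL36B (0.75) and RPS14B (0.51). For isw2 rpd3 against wild type they were RPS9A (-1.32), RPL39 (-1.25) and RPS15 (-1.03), and RPL15B (1.03), RPL7B (0.03) and RPL28 (0.03). RPL15B, a low copy of a pair, had 59.9 FPKM in isw2 rpd3, against 28.9 FPKM in wild type and 33.01 FPKM in rpd3; it was the highest of the 15 columns.

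For isw2 the lowest were RPL15B (-0.59), RPS28B (-0.49) and RPP1A (-0.47) and the highest RPL33A (0.33), RPL41B (0.30) and RPL22A (0.21). For rpd3 they were RPL8A (-0.69), RPL9B (-0.59) and RPS9A (-0.56), and RPL22A (0.58), RPL33A (0.47) and RPL28 (0.36). For isw2 rpd3 against rpd3 they were RPL22A (-1.54), RPL33A (-1.20) and RPS22B (-1.03), and RPL15B (0.84), RPL8A (0.24) and RPS1A (0.21).

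Paralog pairs show the chromosome pattern directly, because the ratio of 2 copies within a column does not depend on how the column was scaled. Members followed the other genes of their chromosome. The 10 tested members on XVI had median deviations of 0.54 and 0.64 with Chd1-Ume6 in ume6, 0.25 with the dead fusion, 0.42 and 0.50 in ume6 alone and 0.57 in rrp6 library 2, on a scale where the median member is 0 in every column. In the other 9 columns the median of these 10 lay below 0 (-0.42 to -0.16). The 5 members on IX had 0.78 and 0.75 in both columns of Chd1-Ume6 in ume6, and RPS14A, the 1 member on III, had 1.13 in the workbook column of ume6.

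**Figure D3:**
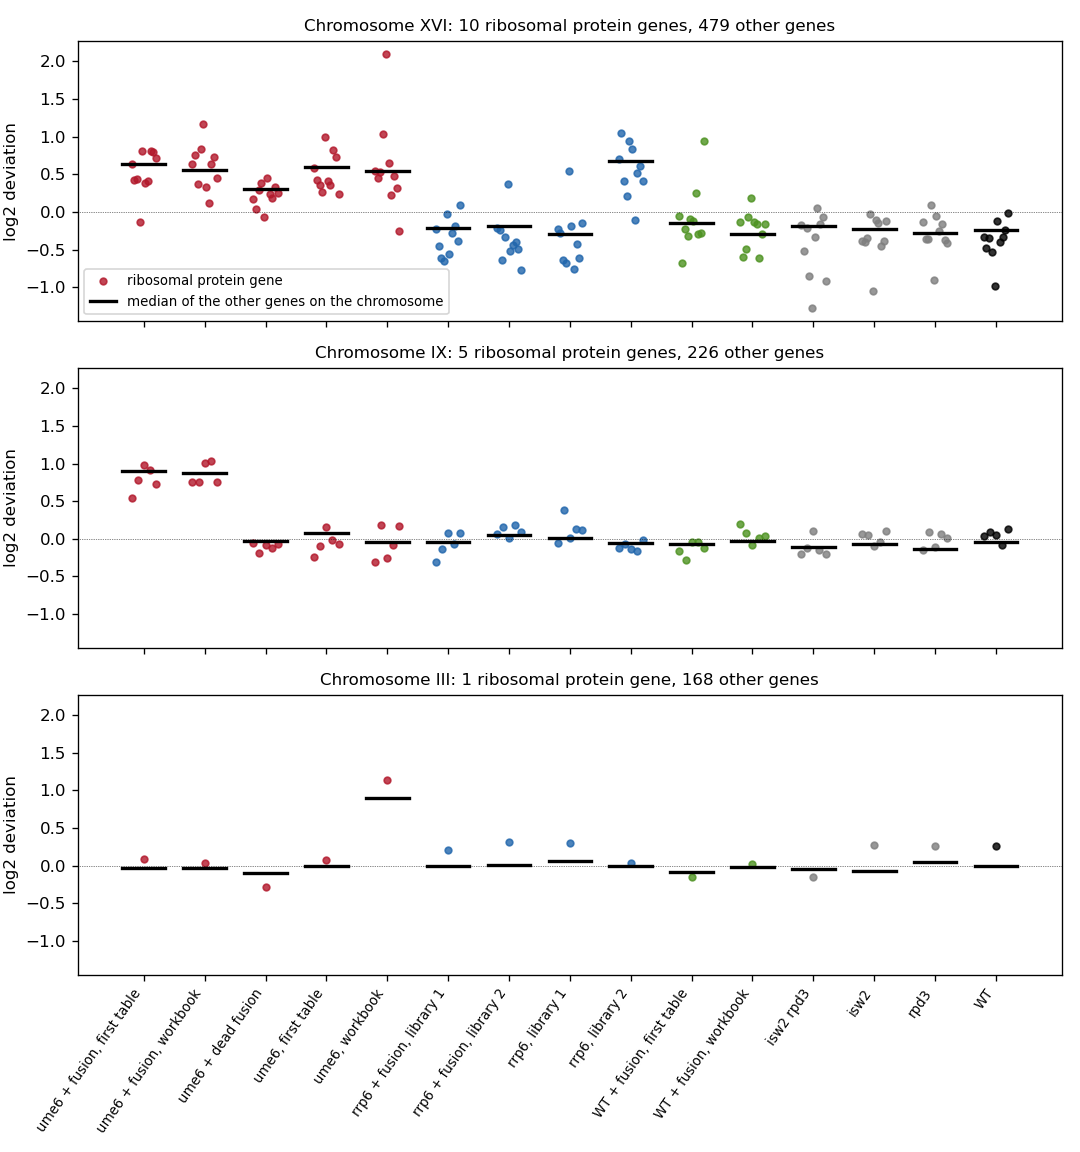
Deviation of each ribosomal protein gene on chromosomes XVI, IX and III (points, log2, against the gene's own median over 15 columns and the median member of the column) and the median of the other genes on that chromosome (black bars) in each column; colours mark the ume6 deletion (red), the rrp6 deletion (blue), Chd1-Ume6 in wild type (green), isw2 and rpd3 deletions (grey) and wild type (black). On XVI the bars are at 0.30 or above in the 5 ume6-deletion columns and rrp6 library 2, on IX at 0.88 or above in both columns of Chd1-Ume6 in ume6, and on III at 0.90 in the workbook column of ume6.

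Of the 10 pairs with 1 copy on XVI, 6 had a ratio of the XVI copy to the other that was higher in all 5 ume6-deletion columns than in the 9 columns of the other groups apart from rrp6 library 2. They were RPL1, RPL7, RPL11, RPL21, RPS6 and RPS23. Among the 49 pairs without a copy on XVI, 4.08% separated the same columns in either direction. Library 2 of rrp6 was set apart with its raised XVI genes known. With it counted among the other columns, only RPL7 of the 6 pairs named still separated. RPL1A had 1162 and 1128 FPKM with Chd1-Ume6 in ume6, 1208 FPKM with the dead fusion and 1182 and 1142 FPKM in ume6, against 1209 FPKM in wild type. Its partner RPL1B, on VII, had 422 and 351 FPKM with the fusion, 671 FPKM with the dead fusion and 469 and 369 FPKM in ume6, against 1404 FPKM in wild type. The log2 ratio of A to B was thus 0.85 to 1.68 in the ume6-deletion columns and -0.24 to 0.32 in the 9 others. In rrp6 library 2 it was 1.34, with RPL1A at 2260 FPKM, and in rrp6 library 1 it was 0.24.

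The single-copy RPL5 and its partner in the 5S particle are given next. The 5S particle is a preassembled unit of 5S RNA, Rpl5 and Rpl11. RPL5, on XVI, had 3540 and 2636 FPKM with Chd1-Ume6 in ume6, 5072 FPKM with the dead fusion and 3693 and 4137 FPKM in ume6, against 4867 FPKM in wild type. With Chd1-Ume6 in rrp6 it had 2262 and 1907 FPKM, against 3322 FPKM in library 1 and 6147 FPKM in library 2 of rrp6. RPL11A, on XVI, had 1077 and 991 FPKM in ume6, against 1081 FPKM in wild type, while RPL11B, on VII, had 362 and 327 FPKM in ume6, against 714 FPKM in wild type. In Chd1-Ume6 in rrp6 against rrp6, the 3 lowest members were RPL5 (-1.12), RPL1A (-0.98) and RPL36B (-0.83), all on XVI. Without rrp6 library 1, the changes in that comparison were -1.57 for RPL5 and -1.58 for RPL1A. That fit leaves rrp6 library 2 as the only rrp6 column, where the other genes on XVI had a median deviation of 0.68.

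All 5 pairs with a copy on IX had a ratio that was higher in both columns of Chd1-Ume6 in ume6 than in the 13 others; among the 54 pairs without one, 11.1% separated the same columns in either direction. The pairs were RPL2, RPL16, RPL34, RPL40 and RPS24. RPL40A and RPL40B each encode ubiquitin fused to a large subunit protein. RPL40A, on IX, had 3551 and 2996 FPKM with Chd1-Ume6 in ume6, against 1902 and 1728 FPKM in ume6. RPL40B, on XI, had 1082 and 901 FPKM with the fusion, against 1163 and 1203 FPKM in ume6. The log2 ratio of A to B was 1.71 and 1.73 with the fusion and 0.37 to 0.77 in the other 13 columns, so the columns of the fusion stand apart. The pairs of 96% or more coding identity among those named (RPL1, RPL2, RPL7, RPL11, RPS6, RPS23 and RPS24) may share reads between copies, which the files do not resolve.

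**Figure D4:**
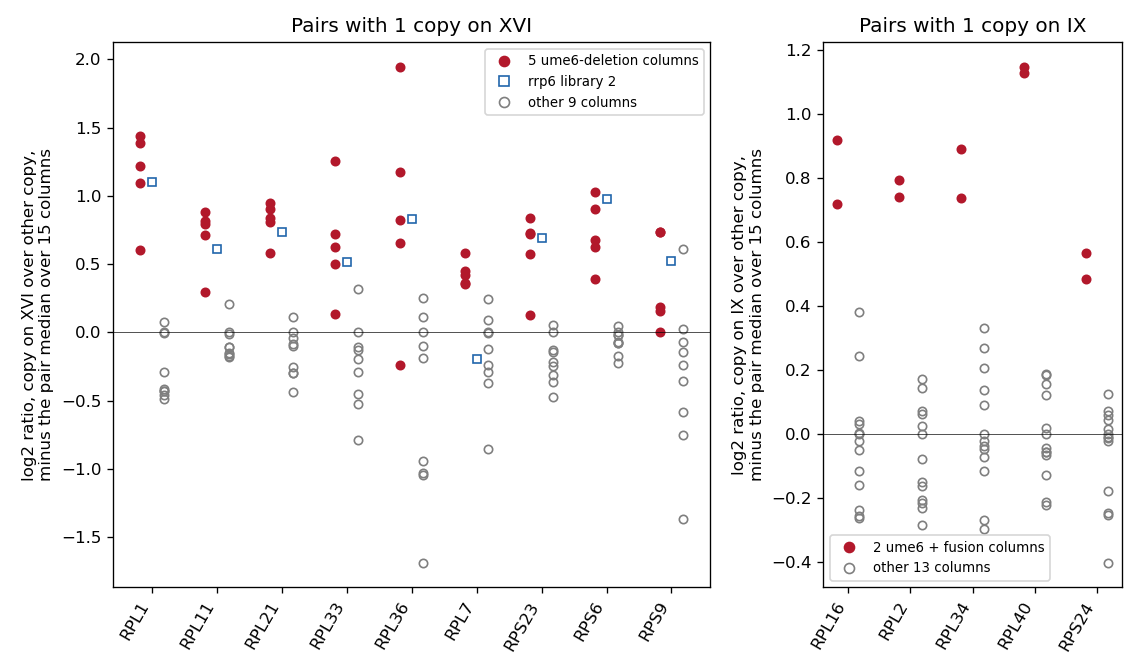
Log2 ratio of the copy on XVI (left, 9 pairs; RPL43 is left out because RPL43A is near 0) or IX (right, 5 pairs) to the other copy, minus the pair's median over the columns; filled red points are the ume6-deletion columns (left) or Chd1-Ume6 in ume6 (right), the blue square is rrp6 library 2 and open grey points are the other columns. On IX all red points lie above all grey ones. On XVI that holds for 6 pairs, and for RPL7 alone with rrp6 library 2 counted among the other columns.

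RPS14A and RPS14B encode the same kind of small subunit protein, and free protein is known to repress RPS14B RNA. RPS14A, on III, had 1953 FPKM in the first-table column of ume6 and 3874 FPKM in the workbook column. RPS14B, on X, had 384 FPKM and 147 FPKM in those columns, the second being its lowest of 15. The log2 ratio of A to B was 4.71 in that column and 1.88 to 2.69 in the other 14. This rests on 1 column.

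**Figure D5:**
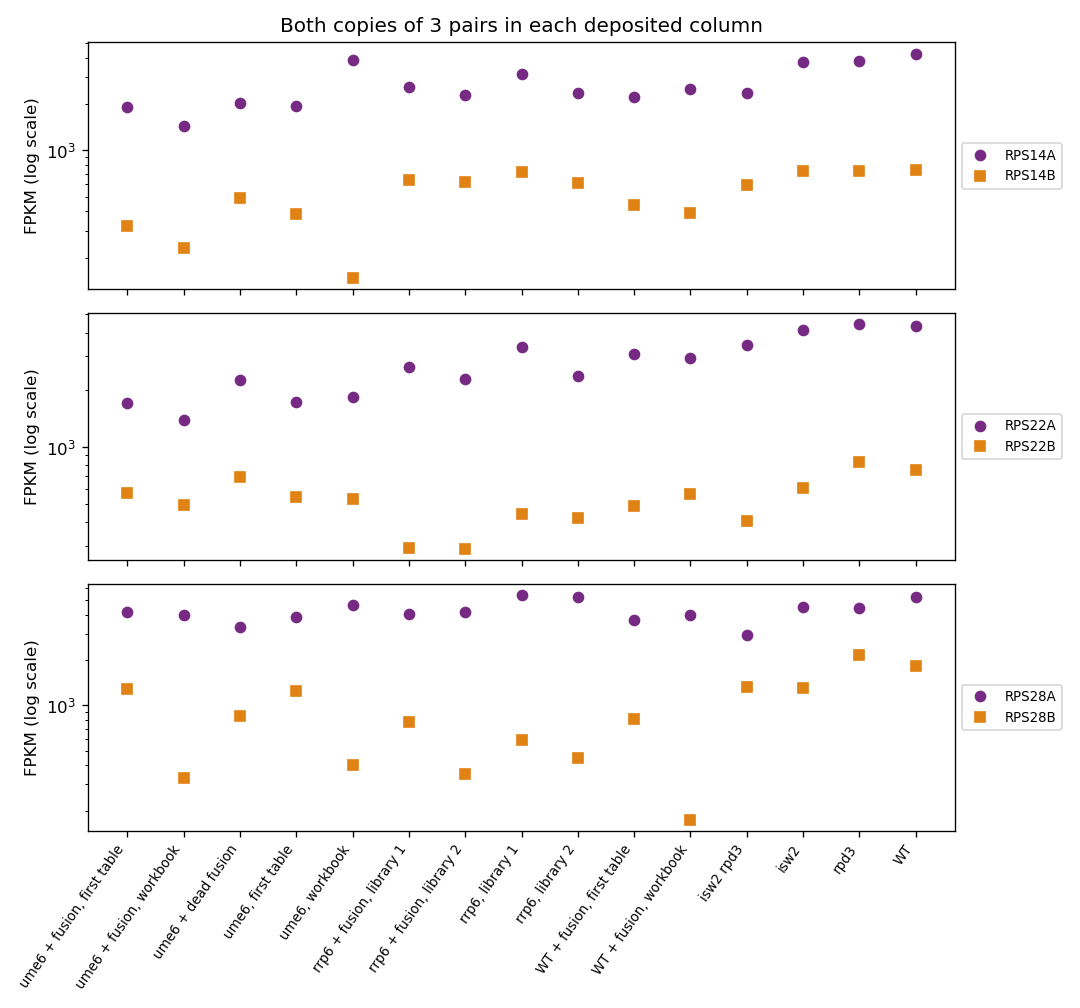
FPKM (log scale) of both copies of RPS14, RPS22 and RPS28 in each column; violet circles are copy A and orange squares copy B. RPS14B is lowest at 147 in the workbook column of ume6, and RPS28B spans 174 to 2169.

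RPL18B, a large subunit gene with 1 intron on XIV, was highest in the rrp6-deletion columns. It had 643 and 490 FPKM with Chd1-Ume6 in rrp6 and 644 and 702 FPKM in rrp6, against 332 and 329 FPKM with Chd1-Ume6 in wild type and 345 FPKM in wild type. In the 11 columns with Rrp6 it had 137 to 365 FPKM. The rrp6 columns are in the workbook and wild type is in the first table, so their fitted difference rests on groups that both hold. The gene was picked out after being seen, and how many of all genes separate these columns was not counted. It did not pass: its change was 1.00 ± 0.30 SE for rrp6 against wild type (adjusted p = 0.225) and 0.79 ± 0.22 SE for Chd1-Ume6 in rrp6 against Chd1-Ume6 in wild type (adjusted p = 0.0805).

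The RPS22 and RPL7 pairs separated the ume6 deletion. They were the 2 pairs of 58 (3.45%) whose ratio in all 5 ume6-deletion columns lay outside that of the other 10. Both pairs include genes with small nucleolar RNAs in their introns, but RPS22A, the RPS22 copy with the larger decrease, has no intron. Any link to these RNAs was not tested. RPS22A had 1704 and 1390 FPKM with Chd1-Ume6 in ume6, 2252 FPKM with the dead fusion and 1728 and 1838 FPKM in ume6, against 4325 FPKM in wild type. RPS22B had 571 and 496 FPKM with the fusion, 694 FPKM with the dead fusion and 542 and 533 FPKM in ume6, against 750 FPKM in wild type. Their log2 ratio was 1.49 to 1.78 in the ume6-deletion columns and 2.39 to 3.16 in the others. Neither copy is on III, IX or XVI, whereas RPL7B is on XVI. RPS22B was lowest with Chd1-Ume6 in rrp6 (294 and 290 FPKM, against 487 and 562 FPKM with Chd1-Ume6 in wild type), a change of -0.84 that just missed the threshold (adjusted p = 0.0528). RPS22B passed there without the table term (adjusted p = 0.0346).

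RPS28B, one of 2 genes for a small subunit protein whose protein is known to promote decay of its own RNA, was the least steady of the well expressed copies. It had 775 and 351 FPKM with Chd1-Ume6 in rrp6, 584 and 447 FPKM in rrp6 and 815 and 174 FPKM with Chd1-Ume6 in wild type, against 1818 FPKM in wild type. Its values in the workbook columns of Chd1-Ume6 in ume6 (330.5 FPKM), of ume6 (403 FPKM) and of Chd1-Ume6 in wild type were each below the first-table column of the same group (1292, 1255 and 815 FPKM). The 2 tables were made separately, and their part in this gene was not tested. RPS28A stayed at 2936 to 5414 FPKM. The change of RPS28B in Chd1-Ume6 in rrp6 against Chd1-Ume6 in wild type was 1.44 ± 0.39 SE (adjusted p = 0.0699), followed by RPS14B (0.94) and RPL18B (0.79). Chd1-Ume6 in rrp6 is only in the workbook, while Chd1-Ume6 in wild type has a column in each table. The fitted change of RPS28B therefore includes the table term, and its deposited values overlapped (775 and 351 against 815 and 174 FPKM). At the other end of that comparison stood RPL3 (-0.89), RPL39 (-0.89) and RPL33A (-0.84).

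In 25 pairs copy A was higher in every column, in 23 copy B, and in 11 the higher copy changed. The median ratio exceeded 2-fold in 28 pairs. Among the most unequal were RPL43 (880-fold, B higher), RPL15 (55.8-fold, A higher), RPL36 (31.8-fold, A higher), RPS27 (8.16-fold, B higher) and RPS9 (7.58-fold, B higher). All pair ratios were taken on FPKM + 1. With RPL43A at a median of 0.877 FPKM, the fold and range of RPL43 depend heavily on that added 1. The log2 ratio ranged most over the columns in RPL36 (3.63), RPS28 (3.47), RPS14 (2.82), RPL43, RPL15 (2.13 each) and RPS9 (2.10). It ranged least in RPS19 (0.33), RPL19 (0.37), RPS4 (0.40), RPL31 (0.46), RPL6 (0.47) and RPS1 (0.48), whose copies lie on chromosomes other than III, IX and XVI. Over all pairs the median range was 0.91, and over the 43 pairs with no copy on these chromosomes 0.75.

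The stalk, which binds translation factors, is built from the large P0 protein (RPP0) and small acidic P1 and P2 proteins. All 5 of its genes were lower in ume6 than in wild type, with a median of -1.22, and none passed. RPP0 had 2541 and 3063 FPKM in ume6, against 6211 FPKM in wild type. RPP1B had 2239 and 2403 FPKM in ume6, against 6172 FPKM in wild type (adjusted p = 0.0523). RPP2A had 2161 and 2074 FPKM in ume6, against 6247 FPKM, RPP2B 3740 and 3604 FPKM, against 7886 FPKM, and RPP1A 2858 and 2459 FPKM, against 5260 FPKM in wild type. Both ume6 columns were below wild type in each of the 5. Nearly all members of the set were lower in that fit too, and wild type was the highest column for 93 members. The stalk genes were also lower than the same wild-type column in every other comparison with it, with none passing. Their medians were -0.997 in isw2 rpd3, -0.92 in Chd1-Ume6 in wild type, -0.85 in rrp6, -0.37 in rpd3 and -0.32 in isw2.

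The ubiquitin fusions had a median of -0.93 in ume6 against wild type. RPS31 had 4187 and 4175 FPKM in ume6, against 8028 FPKM in wild type. Among genes known for regulating themselves, RPL30 had 2334 and 2860 FPKM in ume6, against 4862 FPKM in wild type. RPL22A had 45.8 and 63.6 FPKM in ume6, against 76.7 FPKM, and RPL22B 138 and 106 FPKM, against 208 FPKM in wild type. All 7 members of this group were lower in ume6 and none passed. The 8 single-copy members named for late or essential steps were all lower too, with a median of -0.94.

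RPL10, a single-copy gene on XII whose protein joins the large subunit last, was the 1 member of that group fitted higher with the fusion in ume6. It had 1700 and 1800 FPKM with Chd1-Ume6 in ume6, against 1252 and 1361 FPKM in ume6, so that both fusion columns were higher (0.42 on the log2 scale). The other 7 single-copy members of the group had changes of -0.45 or more but below 0 in that comparison. None of the 8 passed by limma there (lowest adjusted p = 0.577), and RPL10 was picked out after being seen. With Chd1-Ume6 in rrp6 RPL10 had 1208 and 986 FPKM, against 1726 and 1935 FPKM with Chd1-Ume6 in wild type (adjusted p = 0.0629). RPL3, RPL25, RPS2, RPS3 and RPS15 were at 3006 and 2776, 3084 and 2646, 1582 and 1789, 2638 and 2321, and 1987 and 2035 FPKM in ume6, against 5614, 5971, 4448, 4912 and 4117 FPKM in wild type.

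Of 237 genes, 5 members carry an entry in the authors' column for the Ume6 motif: RPS9B, RPL12A, RPL43B, RPL40B and RPL20B. Each holds the URS1 core GGCGGC, on one strand or the other, within 500 bases of its start codon. The core was present in 14.6% of member promoters, 9.57% of all 6000 and 66.7% of the 228 genes with the entry and a full window. The core nearest the start codon is shown in capitals, with 30 bases on each side, on the gene's strand in R64; GCCGCC is its reverse complement.

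RPS9B: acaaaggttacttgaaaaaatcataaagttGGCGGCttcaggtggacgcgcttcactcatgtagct

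RPL12A: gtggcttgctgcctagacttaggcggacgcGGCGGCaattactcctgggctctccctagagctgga

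RPL43B: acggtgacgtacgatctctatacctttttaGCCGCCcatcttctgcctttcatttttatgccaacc

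RPL40B: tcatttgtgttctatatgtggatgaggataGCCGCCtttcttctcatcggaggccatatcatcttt

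RPL20B: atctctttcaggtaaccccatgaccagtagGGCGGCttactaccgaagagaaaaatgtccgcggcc

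They begin 149 (RPS9B), 257 (RPL12A), 347 (RPL43B), 334 (RPL40B) and 277 (RPL20B) bases before the start codon, at chrII:604329-604394, chrV:53440-53505, chrX:607928-607993, chrXI:619049-619114 and chrXV:901436-901501. RPL43B and RPL40B hold the longer TAGCCGCC on the gene's strand. All 5 were lower in ume6 than in wild type. RPS9B had 1726 and 1114 FPKM with Chd1-Ume6 in ume6, 2857 FPKM with the dead fusion and 1857 and 1281 FPKM in ume6, against 3991 FPKM in wild type. RPL20B had 1310 and 1025 FPKM, 1888 FPKM and 1384 and 1248 FPKM in the same order, against 2469 FPKM in wild type. The 5 genes together had a median of -0.93 in ume6 against wild type, beside -0.91 for all members, 0.51 with the dead fusion against ume6 and -0.18 with the active one. None of the 5 passed in any of the 12 comparisons.

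The ribosome assembly genes (63 tested) were lower in ume6 than in wild type in 60 cases, with a median of -0.61, and higher with the dead fusion than in ume6 in 60 cases, with a median of 0.51; none passed in either. They were higher in isw2 rpd3 than in rpd3 in 62 of 63 cases (median 0.55, none passing); the difference from the members' median there (-0.30, and 0.0433 by quantiles) was not tested. Their promoters held GATGAG in 92.1% of cases and AAAAATTT in 85.7%, beside 21.9% and 25.5% of member promoters and 28.2% and 20.5% of all promoters. Of 26 translation factors and ribosome-bound proteins, 18 were lower in ume6 than in wild type and 8 higher. Among the 18, 2 passed, beside 0.545% of all genes in that direction. YEF3, for the fungal elongation factor 3, had 2272 and 2461 FPKM in ume6, against 5665 FPKM in wild type (-1.32 ± 0.25 SE, adjusted p = 0.0360). SSB1, for a chaperone at the exit tunnel, had 781 and 924 FPKM in ume6, against 1889 FPKM in wild type (-1.27 ± 0.24 SE, adjusted p = 0.0364).

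The 18 regulators of the members had no call in ume6 against wild type, with 12 lower and 6 higher. SFP1, an activator of these genes, had 33.4 and 28.5 FPKM in ume6, against 59.2 FPKM in wild type (-0.74 ± 0.26 SE, adjusted p = 0.170). IFH1, the coactivator, had 30.2 and 17.1 FPKM in ume6, against 36.1 FPKM in wild type (-0.22 ± 0.48 SE, adjusted p = 0.855). CRF1, a corepressor, passed in 1 comparison, with 24.6 and 23.1 FPKM for Chd1-Ume6 in rrp6, against 10.3 and 5.63 FPKM for Chd1-Ume6 in wild type (1.66 ± 0.31 SE, adjusted p = 0.0238). Mitochondrial ribosomal protein genes (55 tested) differed from the cytosolic ones in direction: 51 were higher in ume6 than in wild type, with a median of 0.29, and 53 were lower with the dead fusion than in ume6, with a median of -0.40. None of them passed in those 2 comparisons, and the difference between the 2 gene sets was not tested. Most were also higher than the same wild-type column in strains with UME6 intact. That held for 55 with Chd1-Ume6 in wild type (median 0.62), 47 in isw2 (0.11) and 44 in isw2 rpd3 (0.29). It held for 42 in rrp6 (0.19) and 32 in rpd3 (0.04), so the direction was not particular to ume6.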

How the data were processed

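Strand-specific libraries of rRNA-depleted total RNA from 10 groups were used. The authors deposited log2 FPKM in 15 columns, 8 in a first table and 7 in a workbook, per the file headers; the workbook column of ume6 is headed log2 but its values fit log10, so the authors' log10 values were read as such. CASAVA, TopHat2, SAMtools, Cuffdiff and Cufflinks 2.2.1 are named in the submitters' processing notes; the part each tool played, the build and annotation, and any use of strand in counting are not given here by labels or headers. Tables were joined on systematic names. The first-table column of a group with several isolates carries no isolate number, and the p-values measure only the spread between these samples, which may be technical. FPKM gives no depth, so no counting error is stated.

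Values were fitted with limma 3.58.1 (R 4.3.3, trend) on log2(FPKM + 1) in all columns, with group and table as terms and 4 residual degrees of freedom; groups of 1 column are assumed to vary like the others. Genes had a value in every column and at least 1 FPKM in at least 2 columns, 6241 in all. Calls were Benjamini-Hochberg adjusted p under 0.05 over all of them. The script was tested on simulated data. Members and lists were chosen with earlier results of these data known. Named genes were those past the threshold, the 3 highest and 3 lowest members of each comparison, members fixed by role and pairs ranked by ratio and range; RPL10, RPL18B, RPS22B and the URS1 genes' values were picked out after being seen. Sequences are from RefSeq R64. The same-numbered rrp6 libraries with and without the fusion did not deviate together (r = -0.34), so the numbers pair no samples. Some results that the rule names are not reported here.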

Additional observations from a re-analysis of the deposited data

How the results depend on the processing

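Medians moved by over 0.15, the spread between replicate columns, mainly with scaling. Centring on abundant other genes gave -0.62 for ume6 against wild type, 0.0254 for Chd1-Ume6 in wild type, 0.0163 for rrp6, 0.0151 for isw2, 0.17 for rpd3 and 0.14 for isw2 rpd3 against wild type, -0.0640 for Chd1-Ume6 in rrp6 against rrp6, -0.0959 against Chd1-Ume6 in wild type and -0.0329 for isw2 rpd3 against rpd3. Quantile normalization gave, in the same order, -0.27, 0.0488, 0.0878, 0.00671, 0.0275, 0.0636, -0.0445, -0.0232 and 0.0433, and -0.40 for the active against the dead fusion. Without the table term rrp6 against wild type was -0.57.

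Calls in ume6 against wild type numbered 12 with the chromosome median subtracted, 24 without the table term, 11 with a pseudocount of 5 (each holding the 7 reported), 6 with centring (4 of the 7), 1 with quantile normalization (1 of the 7), and 0 to 21 with single columns left out. In Chd1-Ume6 in rrp6 against Chd1-Ume6 in wild type there were 2 with centring (RPS14B, RPS28B), 3 with the chromosome median subtracted (RPL10, RPL33A, RPS22B), 1 without the table term (RPS22B) and 0 to 1 with single columns left out (RPL22B without library 1 and RPS28B without library 2 of Chd1-Ume6 in rrp6). RPL15B passed in isw2 rpd3 against wild type with centring (1 call). Chd1-Ume6 in rrp6 against rrp6 had 0 to 2. The cause was not tested. The share of all genes that passed is not given for the settings of this section, so these counts are not results about the members alone. Leaving out single columns gave medians from -0.94 to -0.84 for ume6 against wild type, -0.32 to -0.0229 for the active fusion against ume6, 0.32 to 0.43 for the dead fusion against ume6, -0.73 to -0.47 for active against dead, -0.49 to -0.28 for Chd1-Ume6 in wild type, -0.51 to -0.29 for rrp6, -0.37 to -0.14 and -0.38 to -0.12 for Chd1-Ume6 in rrp6 against rrp6 and against Chd1-Ume6 in wild type. Centring moved the median of all genes by 0.0164 to 0.57. Pairs over 2-fold numbered 28 to 29, and separating pairs on XVI 6 to 7.

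With the replicate block, 5 members were called in ume6 against wild type, 3 of them among the 7, and 1 (RPS28B, adjusted p = 0.0398) in Chd1-Ume6 in rrp6 against Chd1-Ume6 in wild type; no other count of calls was altered by it. Crossing the rrp6 numbers, added after seeing the data, gave 16 calls in ume6 against wild type. The chromosome alternatives and leave-one-out ratios were also added then.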
